A study of Mus musculus with 9 samples.

Results

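The heat shock proteins and the DnaJ cochaperones of the mouse make up a large part of the machinery that folds, holds and refolds proteins. The members were taken by gene symbol alone, from the names that begin with Hspa, Hspb, Hspd1, Hspe1, Hsph1, Hsp90, Dnaja, Dnajb and Dnajc, without their binding proteins and without pseudogenes. The rule found 73 of the 37980 rows of the expression table, with 72 symbols, because Hspa14 has a second row, at 1.05 FPKM in 19 months replicate 1 and near 0 in the other 8 libraries. RNA came from sorted stem cells of the hair follicle, taken from males of C57BL/6J, a wild-type inbred strain. The mice were 3, 19 or 24 months old, with 3 libraries at each age and 9 in all. The cells came from skin and carry high CD49f (integrin alpha 6) and surface CD34, and the labels name no allele and no agent at any age. The comparison asks how expression in these stem cells differs with age. Whether the 3 libraries at an age stem from different mice is not said in the labels, so the p-values reflect library-to-library spread only, and that spread may be technical.

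HSP70 proteins bind exposed hydrophobic stretches of a client and release them in a cycle driven by ATP. DnaJ proteins, also called J-proteins or HSP40s, deliver clients to HSP70 and trigger ATP hydrolysis through their J domain, and nucleotide exchange factors then free the client. HSP90 finishes the maturation of kinases and steroid receptors, small heat shock proteins hold unfolding clients without ATP, and Hspd1 with Hspe1 forms the folding chamber of the mitochondrial matrix. A subset of these genes is switched on by heat shock factor 1 when unfolded protein accumulates, whereas most members are expressed in unstressed cells.

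The values are FPKM, fragments scaled both for the length of a transcript and for how many fragments its library mapped, so levels of different genes are compared per length below. The depth of each library is unknown. The running numbers in the labels are consecutive within the 3-month libraries and within the older ones, with a gap between, so a batch between 3 months and the older ages cannot be told apart from age. Of 9 markers fixed for the follicle bulge, 8 were tested, and Krt15 was listed at 0 in all 9 libraries. Krt5 was listed at 0 in the 3 libraries of 19 months. Such zeros can be failed estimates, and 36 rows of the table were at exactly 0 in an age and at 5 FPKM or more throughout another. None of the members was among those 36 rows. Cd34 stood at 403 to 632 FPKM and Itga6, which encodes CD49f, at 72.7 to 117 FPKM over the 9 libraries. In the protein-coding fit described below, Sox9 and Nfatc1 of the bulge markers rose at 19 against 3 months (adjusted p = 0.0348 and 0.0264 in limma) and Lgr5 fell at 24 against 3 months (0.00581). Some markers of other cell types differed at 24 against 3 months in the same fit. Both tested endothelial markers of 5 fell, with Pecam1, Cdh5 and Kdr under 1 FPKM in every library, and the list summed to 11.8 to 14.2 FPKM at 3 months, 9.67 to 10.7 at 19 months and 5.62 to 7.24 at 24 months. Of 6 sebaceous markers 4 fell and 1 rose, and their sum was 246 to 314, 223 to 283 and 342 to 458 FPKM. Of 4 tested melanocyte markers 1 fell (Tyrp1), with a list sum of 12.2 to 17.9, 6.54 to 8.45 and 4.19 to 9.20 FPKM. Of 2 tested muscle markers Acta2 rose, with Des at 0 in every library and a list sum of 9.14 to 12.0, 13.1 to 21.1 and 13.9 to 17.8 FPKM. Suprabasal, fibroblast, immune and adipocyte lists gave 0 calls in that comparison. At 19 against 3 months the same fit called 4 sebaceous markers, 1 melanocyte marker and 1 immune marker lower. At 24 against 19 months it called 1 immune marker higher. The whole-table fit called 2 sebaceous markers lower at 19 against 3 months. At 24 against 3 months it called 1 sebaceous and 1 endothelial marker lower. The part of these cells in the results at any age was not tested. In sorted bulk samples, fewer cells of a type and less RNA per cell cannot be told apart.

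Most of the family was expressed in these cells. Mean FPKM over the 9 libraries was at least 100 for 5 rows, 10 to 100 for 31, 1 to 10 for 25 and under 1 for 12. Dnajb8, Dnajc5b and Dnajc5g were listed at 0 in every library. The filter for testing, at least 1 FPKM in at least 3 libraries, kept 63 of the 73 rows. The 10 rows that did not pass were those 3, Hspa12b, Hspa1l, Hspb3, Hspb7, Hspb9, Dnajc22 and the second Hspa14 row. Summed over all members, the family stood at 2643.5 to 3114 FPKM per library. That sum was 0.458 to 0.494% of the protein-coding FPKM at 3 months, 0.434 to 0.490% at 19 months and 0.422 to 0.457% at 24 months, ranges that overlap between 3 and 19 months and between 19 and 24 months. The highest library of 24 months lay just under the lowest of 3 months.

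**Figure D1:**
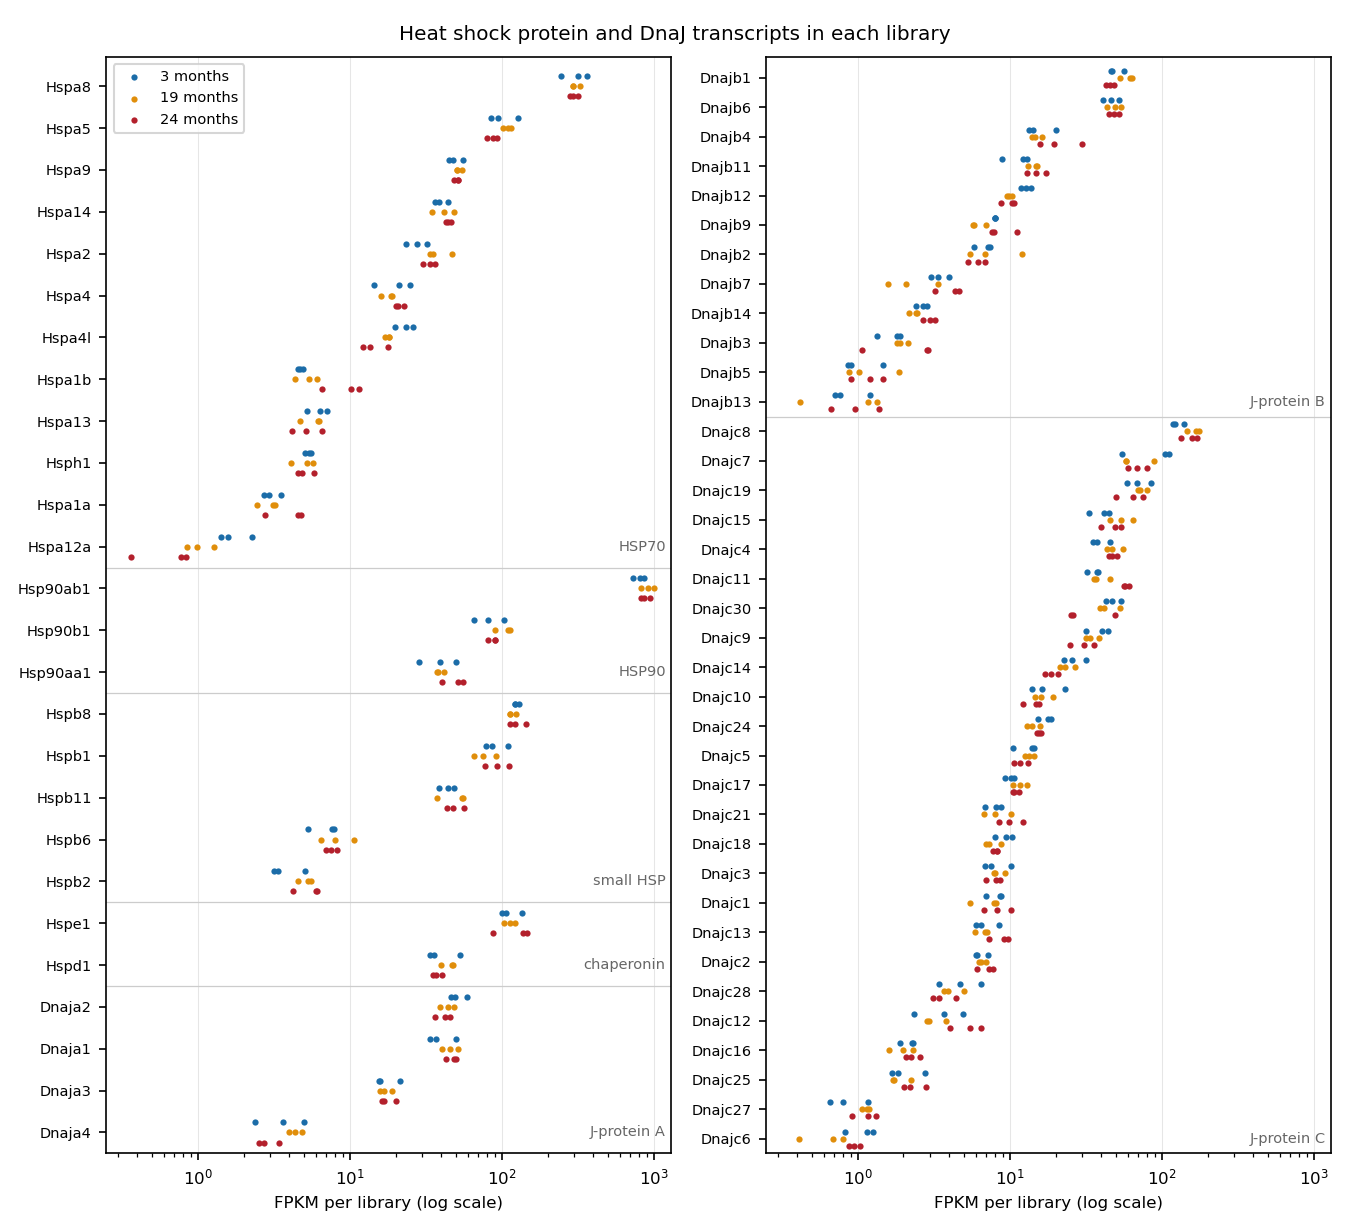
FPKM of the 63 tested members on a log axis, by class, with 1 point for each of the 9 libraries, coloured by age. Hsp90ab1 and Hspa8 stand highest, and for most members the points of the 3 ages lie over each other.

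Few members were called as different between the ages. Each row was tested with limma on log2(FPKM + 1), and log2 changes below are on that scale, where low genes show less than their full change. The whole-table fit used every row that passed the filter, 14275 in number, and adjusted p over all of them (Benjamini-Hochberg, called under 0.05). It called 0 of 63 members at 19 against 3 months, beside 0.280% of all rows tested, 0 at 24 against 3 months, beside 0.203%, and 0 at 24 against 19 months, beside 0.0490%. An F test for a change at any age called 0 members as well, beside 0.224% of all rows, and its smallest adjusted p among the members was 0.108. With background shares this small, a count of 0 in 63 members does not set the family apart. At an unadjusted p under 0.05, limma counted 8 members (12.7%) at 19 against 3 months, beside 14.0% of all rows. The same count was 7 (11.1%) beside 18.6% at 24 against 3 months, and 6 (9.52%) beside 10.7% at 24 against 19 months. Those shares lay below the background in each comparison, but close to it at 19 against 3 months and at 24 against 19 months. Whether the family differs from other genes in this was not tested.

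A second fit covered 11509 protein-coding genes and left out the rows listed at 0 in an age. It was taken over from earlier work on these data, in which it had been seen to give more calls, so its calls are weaker evidence than those of the whole-table fit. It called 0 members at 19 against 3 months, beside 1.56% of its genes. At 24 against 3 months it called 3 members, beside 3.84% of its genes, and these were Dnajc11 and Hspa1b, which rose, and Hspa4l, which fell. At 24 against 19 months it called 0, beside 0.930%, and its F test called 2, beside 4.54%. Members were called in this fit at about the rate of other genes. At these shares, 0 calls or a single call in a class, set or list of partners below does not set it apart.

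**Figure D2:**
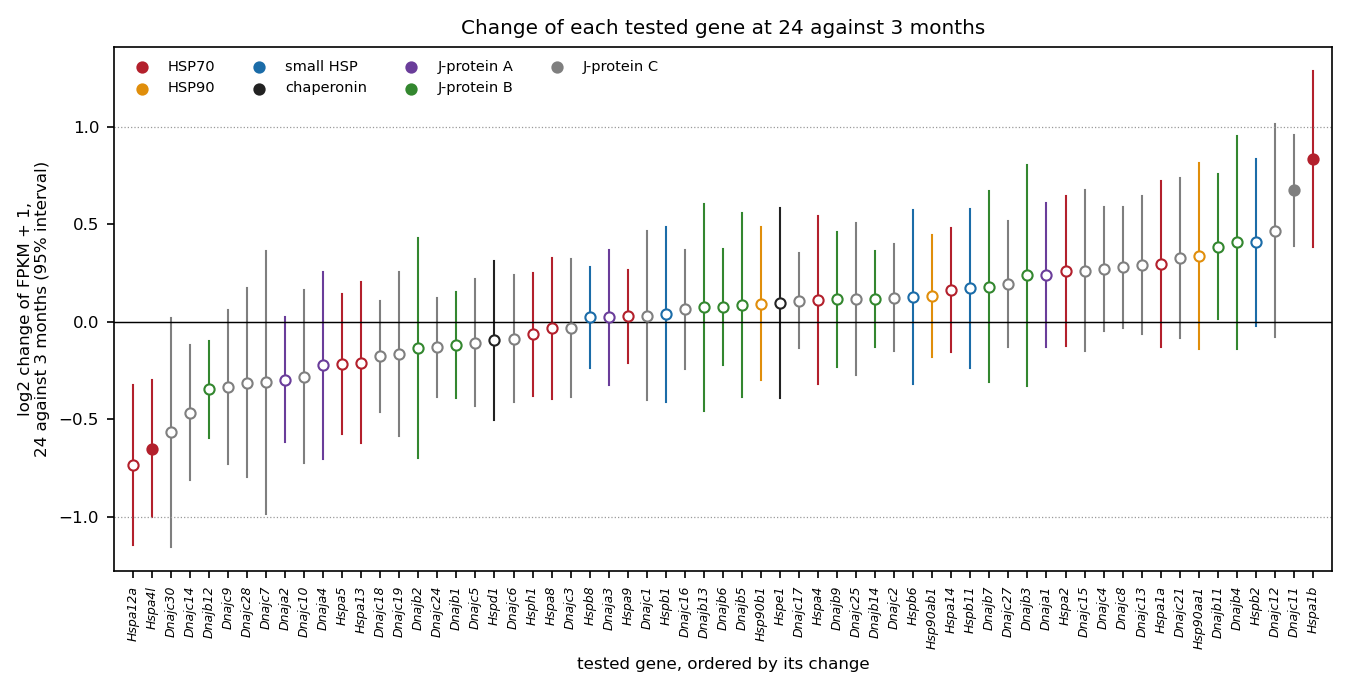
Change in log2(FPKM + 1) at 24 against 3 months for the 63 tested members in order of size, with 95% intervals from limma's whole-table fit, coloured by class, with filled points for the 3 members called in the protein-coding fit. Hspa1b and Dnajc11 stand highest and Hspa12a and Hspa4l lowest, and no point lies beyond 1 (dotted lines) in either direction.

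The changes of the members were small. Their median log2 change was 0.03 at 19 against 3 months, with 32 above 0 and 31 below, 0.08 at 24 against 3 months, with 39 above and 24 below, and 0.02 at 24 against 19 months, with 32 above and 31 below. The median over all rows tested was 0.00, 0.00 and -0.01. In absolute size the median change of the members was 0.15, 0.18 and 0.17, beside 0.19, 0.22 and 0.17 over all rows. With the pseudocount of 1 and all 9 libraries, no member differed by more than 1 on the log2 scale in any comparison. Of the 14275 rows 625, 634 and 582 did. Whether a count of 0 in 63 members differs from the share of all rows was not tested. That count depends on these settings, since at 24 against 3 months Hspa12a reached -1.33 with a pseudocount of 0.1 and Hspa1b reached 1.05 without 24 months replicate 3. The 95% interval of the change lay wholly within 1 in either direction for 62, 58 and 58 of the 63 members. For those members a change of 2-fold or more on this scale lay outside the interval, which bounds the size and does not show that the ages were alike.

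The libraries of the ages compared did not overlap for some members. The share was smaller than that of all rows at 19 and 24 against 3 months and slightly larger at 24 against 19 months. These differences in share were not tested. At 19 against 3 months 4 members were higher and 5 lower in every library, 14.3% of those tested, beside 21.4% of all rows. At 24 against 3 months the counts were 3 higher and 5 lower, 12.7%, beside 21.3%. At 24 against 19 months they were 8 higher and 5 lower, 20.6%, beside 17.3%.

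**Figure D3:**
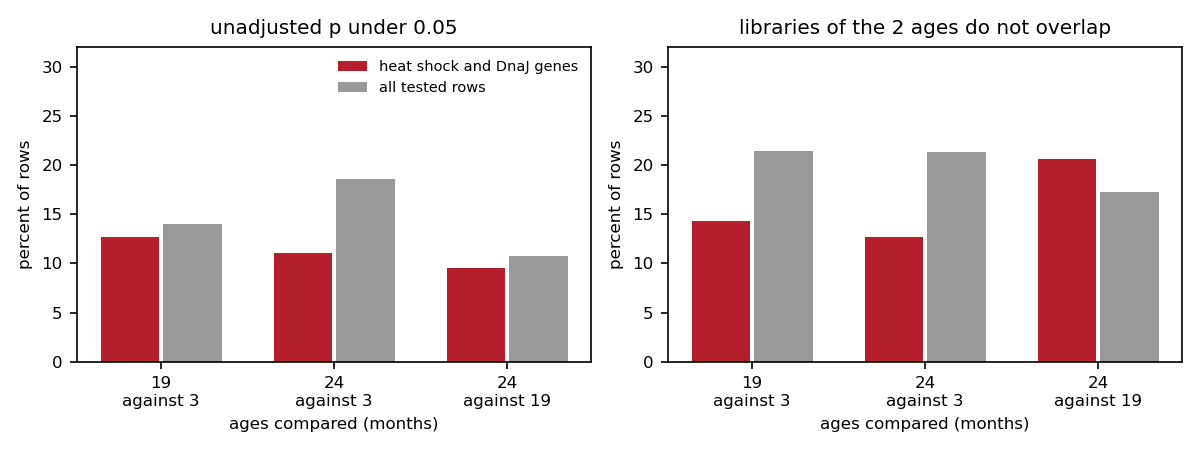
Percent of the 63 members and of the 14275 rows with an unadjusted p under 0.05 (left) and with libraries that do not overlap between the ages compared (right). The members lie below the background in 5 of the 6 pairs of bars, and above it for libraries that do not overlap at 24 against 19 months.

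The promoters of the heat-inducible members are shown first, because heat shock factors bind such promoters at a known pattern of letters. The sequences come from RefSeq on GRCm38.p6, another build than that of the expression table, and 58 of the 72 symbols were matched. Those without an entry are Dnajc2, Dnajc5, Dnajc5b, Dnajc11, Dnajc12, Dnajc18, Dnajc22, Dnajc30, Hsp90aa1, Hsp90ab1, Hspa8, Hspa9, Hspa13 and Hspb2. A heat shock element was searched as at least 3 units in a row, GAA and TTC by turns with 2 bases between them, on both strands, in the 250 bases before the start. It was found exactly in 3 of 58 members (5.17%), Hspd1, Hspe1 and Dnajb6, and in 139 of 27025 genes (0.514%). Allowing 1 changed base in the units, a choice made after the exact result was seen, gave 14 members (24.1%) and 1854 genes (6.86%). Of the 11 heat-inducible members with an entry 8 matched at that setting, and of the 47 others 6 did. A match describes letters and shows no binding. In the lines below the capitals mark the element with its spacers, and each line runs 5′ to 3′ on the strand of the gene.
Hspe1: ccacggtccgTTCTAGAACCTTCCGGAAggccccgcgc
Hspd1: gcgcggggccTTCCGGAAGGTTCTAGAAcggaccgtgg
Dnajb6: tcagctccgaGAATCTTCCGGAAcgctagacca
Hspa1a: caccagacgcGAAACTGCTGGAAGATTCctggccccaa
Hspa1b: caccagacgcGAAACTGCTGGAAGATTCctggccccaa
Hsph1: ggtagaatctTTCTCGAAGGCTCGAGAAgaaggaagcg
Dnaja1: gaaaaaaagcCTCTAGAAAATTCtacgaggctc
Dnajb4: tcgttcgctgTTCTAGAAAGTACa
Hspb1: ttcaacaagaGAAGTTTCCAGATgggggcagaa
The Hspe1 and Hspd1 lines are the same stretch, chr1:55088049-55088086, read on the plus strand for Hspe1 and on the minus strand for Hspd1. It lies between the start of Hspe1 and a start of Hspd1, which point away from each other. Another Hspd1 start lies past the Hspe1 start, and its window holds no element. The Dnajb6 line is chr5:29735842-29735874 on the plus strand. Hspa1a (chr17:34972243-34972280) and Hspa1b (chr17:34959325-34959362), both on the minus strand, have the same letters, and 247 of the 250 bases before their starts are identical. Hsph1 lies at chr5:149636342-149636379 on the minus strand, Dnaja1 at chr4:40722329-40722361 on the plus strand, Dnajb4 at chr3:152193846-152193869 on the minus strand and Hspb1 at chr5:135887792-135887824 on the plus strand.

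Calls in the heat-inducible set went in both directions. It holds 14 tested members, some of which, such as Hspa8 and Hsp90ab1, are also highly expressed without stress: Hspa1a, Hspa1b, Hspa8, Hspa4l, Hsp90aa1, Hsp90ab1, Hsph1, Hspd1, Hspe1, Hspb1, Hspb8, Dnaja1, Dnajb1 and Dnajb4. Its median log2 change was -0.01 at 19 against 3 months, 0.07 at 24 against 3 months and 0.07 at 24 against 19 months. In the protein-coding fit 1 of the 14 rose (Hspa1b) and 1 fell (Hspa4l) at 24 against 3 months, and 0 were called in the other comparisons. That was 14.3% of the set, beside 3.84% of all genes in that fit. The set was written with earlier results of these data known, and Hspa4l, Hspb8 and Dnajb4 were added to a classic list. Its share is therefore a description and no evidence about heat-inducible genes as a group. Hspe1 and Hspd1, which share the printed element, differed in level. At 3, 19 and 24 months, the order used throughout, Hspe1 stood at 114 ± 19.0, 113 ± 9.31 and 124 ± 31.9 FPKM (mean ± SD over 3 libraries, as in all values written with ±), and Hspd1 at 40.9 ± 10.9, 44.6 ± 4.15 and 37.4 ± 2.40 FPKM. Their ratio ran from 2.0 to 4.0 over the 9 libraries, and neither was called. Both levels and their ratio are uncertain here. Of the 50-base stretches of Hspd1 39.7% also occur in transcripts of other genes, and of those of Hspe1 18.4%. The exons of the pair also overlap each other on opposite strands.

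Hspa1a and Hspa1b encode nearly identical stress-inducible HSP70 proteins and are the usual readout of heat shock factor 1. Hspa1b stood at 4.91, 4.59 and 4.67 FPKM in the 3-month libraries, at 5.40, 4.36 and 6.11 FPKM at 19 months and at 11.5, 6.56 and 10.2 FPKM at 24 months. All 3 libraries of 24 months lay above all 6 others, and 1 of them, replicate 3, only narrowly. The log2 change from 3 to 24 months was 0.83 ± 0.20 (SE), with adjusted p = 0.10 in limma's whole-table fit and 0.0291 in the protein-coding fit. Leaving out 1 library at a time in the protein-coding fit kept the call in 4 of 9 fits. It was lost without 3 months replicate 1 (limma, adjusted p = 0.0552), replicate 2 (0.0972) or replicate 3 (0.0660), and without 24 months replicate 2 (0.0857) or replicate 4 (0.123). At 24 against 19 months the change was 0.71, with adjusted p = 0.290 and 0.111 in the whole-table and protein-coding fits of limma.

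Hspa1a was lower and did not pass. Its values were 3.50, 2.71 and 2.92 FPKM at 3 months, 3.12, 2.46 and 3.23 FPKM at 19 months and 4.76, 2.78 and 4.55 FPKM at 24 months, so the ages overlapped. The change at 24 against 3 months was 0.29, with adjusted p = 0.429 and 0.408 in the whole-table and protein-coding fits of limma. Of the 50-base stretches of Hspa1b 62.3% are found in other genes' transcripts, and of those of Hspa1a 60.3%, so how reads were divided between them is uncertain. Their summed FPKM, which can itself shift with that division because each gene is scaled by its own length, was 7.30 to 8.41 FPKM at 3 months, 6.82 to 9.35 at 19 months and 9.34 to 16.3 at 24 months. The lowest summed value of 24 months thus lay just under the highest of 19 months. The ratio of Hspa1b to Hspa1a ran from 1.40 to 1.69, from 1.73 to 1.89 and from 2.25 to 2.42, without overlap between the ages.

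Some of the genes that respond within minutes to the handling of tissue also rose at 24 months. Of 16 such genes 15 were tested, and 5 of them rose and 0 fell at 24 against 3 months in the protein-coding fit, which called 3.84% of all its genes. These were Fos (log2 change 2.05), Egr1 (1.62), Nr4a1 (1.69), Ier3 (1.29) and Dusp1 (1.10), with adjusted p between 0.00337 and 0.0131 in limma. The whole-table fit called none of them. Egr2 went from 9.53 to 6.03 FPKM on average, a log2 change of -0.66 that was not called (adjusted p = 0.255 and 0.129 in the whole-table and protein-coding fits of limma). The list, summed, stood at 442 to 664 FPKM at 3 months, at 490 to 1011 at 19 months and at 856 to 1624 at 24 months. Fosl1 stayed under 1 FPKM in every library and no gene of the list was at 0 throughout. In replicates 2, 3 and 4 of 24 months the summed list stood at 1624, 1247 and 856 FPKM, and Hspa1b at 11.5, 6.56 and 10.2 FPKM. The part of this response in the Hspa1b result was not tested.

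**Figure D4:**
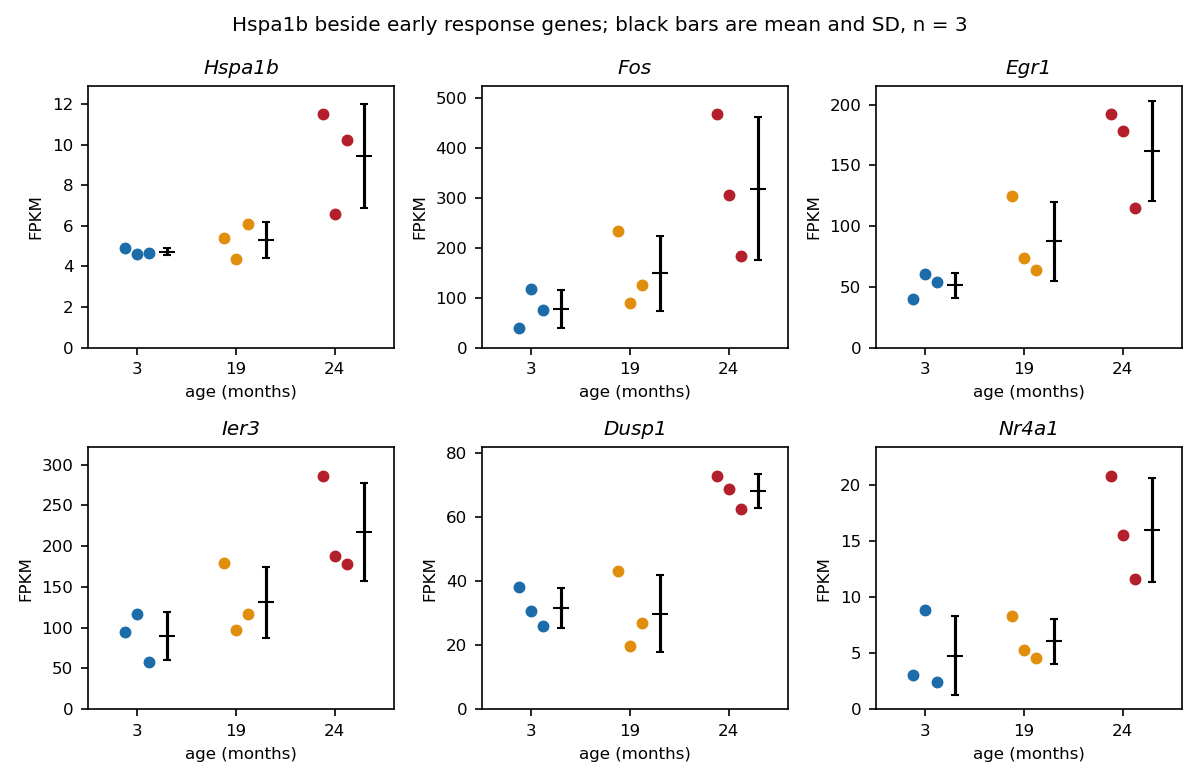
FPKM of Hspa1b and of the 5 early response genes called at 24 against 3 months, 1 point for each library, with mean and SD (n = 3) as black bars. All 6 genes are highest on average at 24 months, and the libraries of that age spread widely for Fos and Hspa1b.

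Among the other HSP70 genes, the main forms of the cytosol, reticulum and mitochondria were not called. Hspa8, the main cytosolic HSP70, expressed without stress and raised further by it, stood at 308 ± 59.5, 304 ± 20.7 and 297 ± 19.6 FPKM and made up 9.22 to 12.8% of the summed members. Of its 50-base stretches 38.6% occur in other genes' transcripts, so its level is uncertain. Its log2 change at 24 against 3 months was -0.03, with a 95% interval from -0.39 to 0.33. Hspa5, the HSP70 of the endoplasmic reticulum, had 102 ± 22.2, 109 ± 6.37 and 86.5 ± 6.75 FPKM, and every library of 24 months lay below every library of 19 months (log2 change -0.33, adjusted p = 0.499 in limma's whole-table fit). Hspa9, the mitochondrial HSP70, stood at 49.5 ± 5.44, 52.2 ± 2.35 and 50.3 ± 1.89 FPKM. Neither Hspa5 nor Hspa9 was called in any comparison. These 3 genes kept their order of level at every age.

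Hspa4l was the member called lower at 24 months. It belongs to the HSP110 branch, large relatives of HSP70 that act as its nucleotide exchange factors. It had 19.9, 25.9 and 23.5 FPKM at 3 months, 18.01, 18.1 and 17.1 FPKM at 19 months and 12.1, 17.7 and 13.5 FPKM at 24 months. The 3-month libraries lay above all 6 others, and the 19- and 24-month libraries overlapped through 24 months replicate 3. The log2 change was -0.36 at 19 against 3 months, with adjusted p = 0.352 and 0.290 in the whole-table and protein-coding fits of limma. At 24 against 3 months it was -0.65 ± 0.15, with adjusted p = 0.0978 and 0.0342 in the same fits. The protein-coding call held in 4 of the 9 fits that left out 1 library. It was lost without 3 months replicate 2 (limma, adjusted p = 0.125) or replicate 3 (0.0806), 19 months replicate 2 (0.0511), and 24 months replicate 2 (0.0939) or replicate 4 (0.125). Its relatives of the same branch did not pass. Hspa4 stood at 20.1 ± 5.37, 17.8 ± 1.60 and 21.3 ± 1.41 FPKM, and Hsph1 at 5.33 ± 0.272, 5.01 ± 0.823 and 5.07 ± 0.665 FPKM.

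Hspa12a, a distant and atypical relative of HSP70, stood low, and it passed the filter through its 3-month libraries, the age where it was highest, while all 3 libraries of 24 months were under 1 FPKM. Its difference from 3 months is therefore given as a description. Its values were 2.28, 1.41 and 1.57 FPKM at 3 months, 1.28, 0.983 and 0.849 at 19 months and 0.361, 0.833 and 0.775 at 24 months, with no overlap between any 2 ages. The log2 change at 24 against 3 months was -0.73 ± 0.18, with adjusted p = 0.104 in limma's whole-table fit and 0.0528 in the protein-coding fit, so it was not called. The size of that change rests on the pseudocount, at -1.33 with 0.1 and -0.26 with 5. It shares exonic bases with Eno4 on the opposite strand. The sources used here do not give strand use, and the value is uncertain for that reason. Hspa2, an HSP70 best known from the testis, stood at 27.8 ± 4.42, 38.5 ± 7.37 and 33.3 ± 2.97 FPKM. Its log2 change of 0.45 at 19 against 3 months had adjusted p = 0.302 and 0.178 in the 2 fits of limma. Hspa14, linked to the ribosome, was at 39.8 ± 4.18, 41.5 ± 6.95 and 44.6 ± 1.57 FPKM and was not called.

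HSP90 carried the most RNA of the family per length. Hsp90ab1, the cytosolic form that is abundant without stress, stood at 798 ± 67.0, 912 ± 90.5 and 874 ± 60.5 FPKM and alone made up 25.6 to 32.3% of the summed members. The more strongly inducible cytosolic form Hsp90aa1 had 39.2 ± 10.8, 38.9 ± 2.31 and 49.0 ± 7.99 FPKM. The ratio of Hsp90ab1 to Hsp90aa1 was 17.2 to 25.6 at 3 months, 21.8 to 24.3 at 19 months and 16.1 to 21.5 at 24 months, so the 24-month libraries lay below the 19-month libraries and overlapped those of 3 months. Hsp90aa1 shares 47.5% of its 50-base stretches with transcripts of other genes, which makes this ratio uncertain. Hsp90b1, the form of the endoplasmic reticulum, stood at 83.1 ± 18.7, 104 ± 11.9 and 87.2 ± 4.87 FPKM. None of these 3 genes was called, and the largest of their changes was 0.34 (Hsp90aa1 at 24 against 3 months and Hsp90b1 at 19 against 3 months).

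Small heat shock proteins ranged from over 100 FPKM on average to under 1, and none was called. Hspb8, which works with a BAG cochaperone in selective autophagy, stood at 124 ± 4.04, 117 ± 6.07 and 127 ± 15.9 FPKM, and its change at 24 against 3 months was 0.02 with a 95% interval from -0.24 to 0.28. Hspb1, the HSP27 of the mouse, stood at 91.6 ± 16.7, 77.3 ± 13.2 and 94.1 ± 17.2 FPKM, values that are uncertain because 48.8% of its 50-base stretches also occur in the pseudogene Hsp25-ps1. Hspb11, which is also a subunit of the intraflagellar transport complex of cilia, was at 43.7 ± 4.98, 49.1 ± 9.90 and 49.4 ± 6.34 FPKM. Hspb6 and Hspb2, forms of muscle, were lower, at means of 6.93 to 8.39 FPKM and 3.87 to 5.43 FPKM. Both values are uncertain because of overlapping exons. Those of Hspb2 overlap Cryab, a far higher gene, on the opposite strand. Those of Hspb6 overlap Gm38670 on the same strand and Lin37 and Proser3 on the opposite strand. The 5 tested members of this class gave 0 calls in both fits at all comparisons, beside at most 3.84% of all genes. A relative outside the name rule, Cryab, stood at 125 ± 40.3, 220 ± 43.0 and 170 ± 26.7 FPKM and was not called either, with adjusted p = 0.241 and 0.0591 at 19 against 3 months in the 2 fits of limma.

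J-proteins of class A pair with cytosolic and mitochondrial HSP70 as general cochaperones. Dnaja2 and Dnaja1, both cytosolic, stood at 51.2 ± 6.52, 44.1 ± 4.73 and 41.5 ± 4.78 FPKM and at 40.2 ± 8.26, 45.8 ± 5.39 and 47.1 ± 3.83 FPKM. Dnaja2 was higher than Dnaja1 on average at 3 months and lower at 19 and 24 months, and its 3-month libraries lay above those of 24 months (log2 change -0.30, adjusted p = 0.295 in limma's whole-table fit). Dnaja3 of the mitochondria had 17.6 ± 3.35, 17.1 ± 1.59 and 17.7 ± 2.04 FPKM. Dnaja4 was the lowest, at 3.65 ± 1.30, 4.38 ± 0.429 and 2.89 ± 0.469 FPKM, with every 24-month library below every 19-month library (log2 change -0.47, adjusted p = 0.467 and 0.35 in the 2 fits). None of the 4 was called.

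Class B was led by Dnajb1 and Dnajb6. Dnajb1, the heat-inducible partner of Hspa8 and Hspa1a, stood at 49.8 ± 5.53, 59.4 ± 5.60 and 45.6 ± 2.88 FPKM. Its 24-month libraries all lay below those of 19 months, by a log2 change of -0.37 (limma, adjusted p = 0.351 and 0.232 in the 2 fits), opposite in direction to Hspa1b in the same comparison. Dnajb6, a suppressor of protein aggregation and 1 of the 3 members with the exact element printed above, had 46.3 ± 5.68, 49.0 ± 5.21 and 48.7 ± 3.85 FPKM. Dnajb4 was at 15.9 ± 3.72, 14.9 ± 1.20 and 21.7 ± 7.20 FPKM and Dnajb7 at 3.46 ± 0.494, 2.36 ± 0.938 and 4.07 ± 0.729 FPKM. The changes of these 2 genes at 24 against 19 months were 0.47 and 0.62, and neither was called. That of Dnajb4 was 0.23 without 24 months replicate 4, and that of Dnajb7 was 0.31 with a pseudocount of 5. Of the 12 tested genes of the class, 0 were called in either fit, beside 3.84% of all genes in the protein-coding fit at 24 against 3 months.

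The members of the endoplasmic reticulum showed 0 calls among 10 tested, Hspa5, Hspa13, Hsp90b1, Dnajb9, Dnajb11, Dnajb12, Dnajb14, Dnajc1, Dnajc3 and Dnajc10. The protein-coding fit called 3.84% of all its genes at 24 against 3 months. Dnajb12, a membrane J-protein that helps degrade misfolded membrane proteins, stood at 12.9 ± 0.984, 9.90 ± 0.397 and 9.91 ± 1.06 FPKM. Its 3-month libraries lay above those of both older ages, with log2 changes of -0.34 and -0.35 and adjusted p = 0.246 and 0.167 in limma's whole-table fit. Dnajb11, a partner of Hspa5, went the other way, from 11.3 ± 2.12 FPKM to 14.4 ± 1.04 and 15.0 ± 2.28 FPKM, with the 3-month libraries below the rest (log2 changes 0.33 and 0.38, adjusted p = 0.402 and 0.255). Dnajb9, induced by the unfolded protein response, was at 8.02 ± 0.0302, 6.19 ± 0.664 and 8.89 ± 2.02 FPKM. Its 19-month libraries lay below those of both other ages. The log2 change was -0.33 at 19 against 3 months and 0.44 at 24 against 19 months (limma's whole-table fit, adjusted p = 0.373 and 0.365).

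Class C holds J-proteins with specialised partners, and its member Dnajc11 gave the smallest adjusted p of the family. Dnajc11 is a mitochondrial protein associated with the complexes that shape the cristae. It had 38.2, 37.6 and 32.4 FPKM at 3 months, 45.9, 37.1 and 35.6 FPKM at 19 months and 56.1, 61.1 and 57.0 FPKM at 24 months. The 24-month libraries lay close together and above all 6 others, while those of 3 and 19 months overlapped. The log2 change at 24 against 3 months was 0.67 ± 0.12, with adjusted p = 0.0700 in limma's whole-table fit and 0.0136 in the protein-coding fit. At 24 against 19 months it was 0.55, with adjusted p = 0.236 and 0.0746, and at 19 against 3 months 0.12. The protein-coding call at 24 against 3 months held in 8 of 9 fits with 1 library left out and was lost without 24 months replicate 4 (limma, adjusted p = 0.0519). Of its 50-base stretches 1.55% occur in other genes' transcripts, and its exons overlap no other gene in GENCODE M21, which is on another build than the table.

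**Figure D5:**
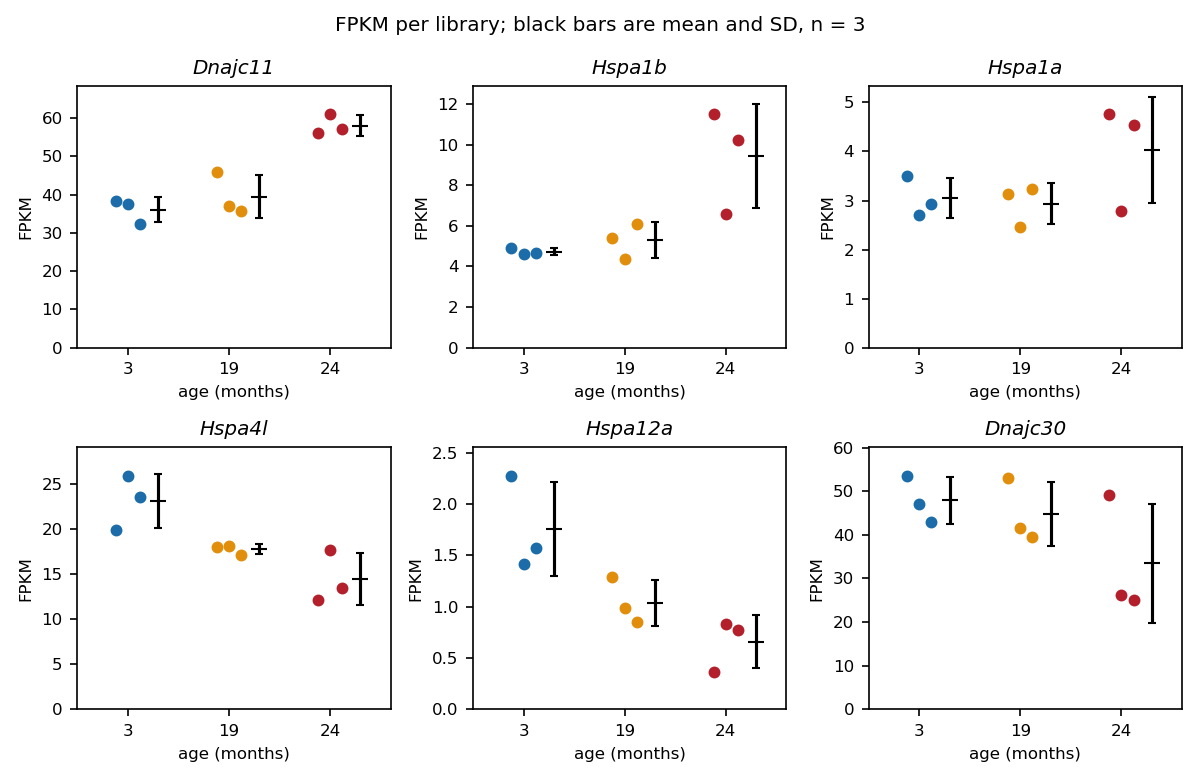
FPKM of Dnajc11, Hspa1b, Hspa1a, Hspa4l, Hspa12a and Dnajc30, 1 point for each library by age in months, with mean and SD (n = 3) as black bars. Of these, the protein-coding fit called Dnajc11, Hspa1b and Hspa4l at 24 against 3 months. The 24-month libraries of Dnajc11 and Hspa1b lie above all others, and Hspa4l runs the other way. Hspa12a, also lower at 24 months, passed the filter through the age where it was highest and is shown as a description.

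No other mitochondrial member was called. Of the 8 genes of that set, which also holds Hspa9, Hspd1, Hspe1, Dnaja3, Dnajc15, Dnajc19 and Dnajc30, only Dnajc11 was called. The call came from the protein-coding fit at 24 against 3 months, which called 3.84% of all its genes. Dnajc19 and Dnajc15, both of the motor that imports proteins through the inner membrane, stood at 70.9 ± 13.4, 73.5 ± 5.44 and 63.3 ± 12.6 FPKM and at 39.7 ± 6.04, 54.7 ± 9.27 and 47.8 ± 7.31 FPKM. Dnajc15 was higher in every 19-month than in every 3-month library (log2 change 0.45, adjusted p = 0.328 and 0.194 in the 2 fits of limma). Dnajc30, a J-protein tied to the ATP synthase, had 53.6, 47.2 and 43.0 FPKM at 3 months, 53.2, 41.5 and 39.5 at 19 months and 49.2, 26.1 and 25.1 at 24 months. A single 24-month library, replicate 2, stood at the level of the younger ages. The log2 change at 24 against 3 months was -0.57 (limma, adjusted p = 0.281 and 0.139 in the 2 fits). Of the 9 protein-coding fits that left out 1 library, only 1 called it, the fit without that library (limma, adjusted p = 0.0154). Over those 9 fits the adjusted p of limma ran up to 0.428. Dnajc30 shares exonic bases with Bud23 on the opposite strand, so its value is uncertain.

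The most abundant J-protein was Dnajc8, which is associated with splicing factors, at 127 ± 11.9, 164 ± 14.7 and 155 ± 19.6 FPKM. Its log2 change of 0.36 at 19 against 3 months had adjusted p = 0.302 and 0.209 in the 2 fits of limma, with no overlap of the libraries. Dnajc7, which binds both HSP70 and HSP90, stood at 90.1 ± 31.0, 68.5 ± 17.99 and 69.5 ± 9.72 FPKM and was not called. Dnajc14, which takes part in the export of receptors from the endoplasmic reticulum, was at 26.7 ± 4.68, 23.7 ± 2.85 and 18.9 ± 1.83 FPKM. Every 24-month library of Dnajc14 lay below the other 6, and its change at 24 against 3 months, -0.47, had adjusted p = 0.173 and 0.102. Its exons overlap Sarnp on the same strand and Ormdl2 and Tmem198b on the opposite strand, so its value is uncertain. Dnajc12, a cochaperone of the aromatic amino acid hydroxylases, was at 3.64 ± 1.29, 3.20 ± 0.549 and 5.32 ± 1.23 FPKM (log2 change 0.58 at 24 against 19 months, adjusted p = 0.447 and 0.272). Of the 25 tested genes of class C, Dnajc11 alone was called, in the protein-coding fit at 24 against 3 months, beside 3.84% of all genes there.

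The partners and regulators of the family were read from lists. Of the heat shock factor list 3 of 5 genes were in the test and 0 were called. Hsf1, the main stress factor, stood at 17.8 ± 1.44, 18.4 ± 1.31 and 16.1 ± 2.08 FPKM. Hsf2, a factor of development and of stress together with Hsf1, was at 16.1 ± 3.26, 8.67 ± 1.75 and 10.4 ± 2.46 FPKM, and its change of -0.82 at 19 against 3 months had adjusted p = 0.179 in limma's whole-table fit and 0.0501 in the protein-coding fit. Hsbp1, which binds heat shock factor 1, was the highest of the list at 139 ± 14.5, 183 ± 24.1 and 162 ± 19.6 FPKM.

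None of the 11 nucleotide exchange factors of HSP70 was called in either fit, and Bag5 and Sil1, the highest, stood at means of 30.7 to 34.0 FPKM and 28.5 to 37.6 FPKM. The 8 subunits of the cytosolic chaperonin CCT, led by Cct5 and Cct7, the 5 prefoldin subunits matched, led by Pfdn5 and Pfdn1, and the 6 genes of mitochondrial protein quality, led by Clpp and Trap1, gave 0 calls in the fits they entered. Cct6a, which has another gene type in GENCODE M21, was in the whole-table fit only (log2 change -0.41 at 24 against 3 months, adjusted p = 0.146 in limma). Of 15 cochaperones of HSP70 and HSP90, led by Ptges3 and St13, Fkbp5 was called in the protein-coding fit. Fkbp5, an HSP90 partner induced by glucocorticoids, stood at 12.4 ± 4.21, 1.87 ± 0.854 and 15.1 ± 9.35 FPKM, lower at 19 months than at either other age. Its log2 change was -2.22 from 3 to 19 months and 2.31 from 19 to 24 months. Adjusted p was 0.163 and 0.236 in limma's whole-table fit, which did not call it, and 0.0118 and 0.0170 in the protein-coding fit. The 24-month libraries of Fkbp5 spread widely, at 4.98, 16.9 and 23.4 FPKM. Of 15 genes of folding in the endoplasmic reticulum, with Pdia6 and Pdia3 the highest, Pdia3 fell. This disulfide isomerase of glycoproteins stood at 213 ± 52.3, 201 ± 27.2 and 117 ± 21.5 FPKM, a log2 change of -0.84 at 24 against 3 months (adjusted p = 0.117 in the whole-table and 0.0208 in the protein-coding fit of limma).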

How the data were processed

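The deposited table gives the authors' FPKM values for 37980 rows in 9 libraries. The submitters' processing notes name TopHat, Cuffdiff and the build NCBIM37. The sources used here give no versions, settings or strand use. FPKM carry no depth, so no counting interval is given.

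Rows that reached 1 FPKM in 3 or more libraries were tested with limma 3.58.1 (R 4.3.3) on log2(FPKM + 1), in 1 model of the 9 libraries, a mean-dependent prior, two-sided tests and Benjamini-Hochberg adjustment over 14275 rows. The protein-coding fit used 11509 genes with that GENCODE M21 gene type, without rows at 0 in an age and at 5 FPKM or more in another. The code was tested on simulated data. Intervals are limma's 95% intervals.

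The members, the lists and the second fit were chosen with earlier results of these data known. Named were members called in either fit, the 3 highest of each class, the 6 with the largest change at each comparison and the heat-inducible genes. Of the lists named were called genes, Hsf1, Hsf2 and the 2 highest. Members named for libraries that did not overlap, and those given as relatives or set members, were added after their values were seen. Alternatives covered the pseudocount, the filter, normalisation, the prior, left-out libraries and the replicate number. Same-numbered libraries of 2 ages deviated together with correlations of -0.0667 to 0.105, and the main fits did not pair the samples. Correlations over all rows cannot settle whether same-numbered libraries shared a day or a batch.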

Additional observations from a re-analysis of the deposited data

How the results depend on the processing

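Of the 18 log2 changes of named members checked, 0 turned direction in 32 or 33 alternatives each. Sizes moved more, as for Hspa12a at 24 against 3 months, from -1.33 to -0.26, and Dnajb4 at 24 against 19 months, from 0.17 (with the replicate block) to 0.66. The count of 0 members called by the whole-table fit held in 19, 18 and 19 of 19 settings at 19 against 3, 24 against 3 and 24 against 19 months. The exception was a robust prior, which called 1 member (Dnajc11, adjusted p = 0.0392 in limma). Leaving out 1 library at a time in the whole-table fit gave 0 to 0 members in each comparison. The protein-coding fit called 3 members at 24 against 3 months and 2 in its F test. In alternatives added after seeing the data, that fit gave 4 and 2 with a robust prior, 3 and 2 with a pseudocount of 0.1, and 3 and 1 after quantile normalisation. The member added by the robust prior was Hspa12a. It passed the filter through the age where it was highest, so that call is not read as a result. With 1 library left out the protein-coding fit called 0 to 0 at 19 against 3 months, 0 to 3 at 24 against 3 months and 0 to 1 at 24 against 19 months.

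The replicate number as a block, which the labels do not tie to animals or days, left 0 members called in the whole-table fit, and 1 at 24 against 3 months (Dnajc11) and 1 in the F test in the protein-coding fit. The causes of these shifts were not tested. Depth is unknown, and 3 libraries an age limit precision. Members at low FPKM and those with near-identical copies or overlapping genes are the least certain.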
